A study of Mus musculus with 15 samples.

Results

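Ier2, Ier3 and Ier5 are immediate early response genes, which cells transcribe within minutes of a stimulus without needing new protein. Their sites were taken as all crosslink sites on the sense strand of the 3 genes (GENCODE M21, mm10), and 170 of the 162273 sites in 6 site lists fell there. By list these were 9 sites for TTP and 6 for TTP-AA in unstimulated cells, 39 and 110 after 1 h of lipopolysaccharide (LPS), and 6 and 0 after 4 h. Of 4877 genes with a site in a 3′UTR in any list, the 3 genes showed 3 different patterns: Ier3 was prominent for both proteins at 1 h, Ier5 was listed for TTP-AA but not for TTP at 1 h, and Ier2 was nearly absent. The few Ier2 sites were likewise of TTP-AA at 1 h alone. Such a listing was common, since 1166 of the 2102 genes tested at 1 h had no 3′UTR site for TTP.

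Tristetraprolin (TTP, encoded by Zfp36) is a zinc finger protein that binds AU-rich elements in 3′UTRs, of which AUUUA is the core, and brings the deadenylation machinery to the mRNA. LPS activates the p38/MK2 kinase pathway, and MK2 phosphorylates TTP on serines that control its partners and its binding to RNA. Immediate early mRNAs are typically short-lived, and AU-rich elements are one means by which cells remove them again. Ier3 encodes a stress-inducible protein that modulates cell survival and NF-κB signalling, Ier5 encodes a nuclear protein that acts on the heat shock factor HSF1, and Ier2 encodes a nuclear protein induced by growth factors.

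The lists came from individual-nucleotide resolution crosslinking and immunoprecipitation (iCLIP), in which UV light links a protein to the RNA it touches and each cDNA ends next to the linked nucleotide. The cells were bone marrow-derived macrophages of TTP-deficient C57BL/6 mice, immortalised with hcmyc and hRasG12V, which carried a tet-inducible vector for GFP-TTP or for GFP-TTP-AA, a mutant whose MK2 serines are alanines. All cells received doxycycline for 6 h, and the 15 samples held GFP-TTP without LPS (2 samples), with LPS for 1 h (4) and for 4 h (2), and GFP-TTP-AA without LPS (2), with LPS for 1 h (3) and for 4 h (2). The tagged protein is thus induced from a vector and replaces the endogenous protein in every group, and a value for GFP alone was not analysed here.

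Each list is the sum over the libraries of its group, so there was no replicate error, and every test below compares pooled lists and not conditions. The lists held between 19167 and 174397 cDNAs, of which between 906 (TTP, 4 h) and 93510 (TTP-AA, 1 h) lay in 3′UTRs. In the TTP-AA list of 1 h, 53.6% of cDNAs lay in 3′UTRs against 9.63% in the TTP list of 1 h, so shares of 3′UTR cDNAs and shares of all cDNAs scale the same counts very differently. The lists keep only sites past the authors' false-discovery threshold. A gene at 0 is therefore listed at 0, and the limit of 3 counts given for it covers counting error but not sites lost to that threshold. The threshold was computed over windows of 15 nt around each site. How far the clustering of the listed sites follows from it was not tested. Sense cDNAs in exons were listed for 6 of 8 macrophage markers and for 0 of 15 markers of T cells, B cells, fibroblasts and epithelium, although such cDNAs are not expression levels. The lists do not measure the amount of each mRNA. A difference in cDNAs between lists therefore cannot be told apart from a difference in mRNA.

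The sequences under the crosslinks differed between the genes. Ier3 lies on chromosome 17 (mm10, plus strand, 35821684 to 35822923, 2 exons), and its 613 nt 3′UTR (35822311 to 35822923) holds 5 AUUUA motifs in 3 groups. They are printed in capitals, 5′ to 3′, because nearly all Ier3 cDNAs of 1 h lay within 20 nt of one.
Ier3 group 1, chr17:35822485-35822514, plus strand: uaauuaauAUUUAuguAUUUAuguauaucc
Ier3 group 2, chr17:35822531-35822560, plus strand: gguguauguaauAUUUAuucuaacuuaugc
Ier3 group 3, chr17:35822591-35822620, plus strand: cacagauAUUUAuuacgAUUUAuagggucg

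The stretches of group 1 held 41 cDNAs of TTP and 65 of TTP-AA at 1 h, and those of group 2 held 43 and 76. Group 3 held 0 and 5. The unstimulated TTP cDNAs were all in group 2 (6 cDNAs) and the TTP cDNAs of 4 h all in group 1 (6 cDNAs). The longer motif UAUUUAU occurred at 4 of the 5 motifs (each overlapping an AUUUA), and UUAUUUAUU, the nonamer regarded as optimal for TTP, was not in this 3′UTR. AUUUA was found in 65.2% of 21045 annotated mouse 3′UTRs, UAUUUAU in 27.6% and UUAUUUAUU in 7.66%.

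Ier5 lies on chromosome 1 (mm10, minus strand, 155096361 to 155099636, 1 exon) and has a longer 3′UTR of 2143 nt (155096361 to 155098503). It holds 2 AUUUA motifs, 1641 to 1645 and 1739 to 1743 nt after the stop codon, and no Ier5 cDNA lay near either. The stretches that held the cDNAs are shown instead, with the crosslinked nucleotides in capitals (TTP-AA at 1 h in the first 2 lines, either protein without LPS in the last). The last line spans the TTP sites without LPS with 3 nt on each side. It leaves out the TTP-AA sites without LPS at positions 155097588 and 155097591.
Ier5, densest 30 nt, chr1:155097590-155097619, minus strand: agGUUUUuGuaCagUAuUUUCUCcuUCUcu
Ier5, upstream cluster, chr1:155097933-155097962, minus strand: gagacuuguauuAuuUUucucccuccccau
Ier5, unstimulated sites, chr1:155097561-155097583, minus strand: aUuUuuguaUaaaaaugUAAcUu

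Ier2 lies on chromosome 8 (mm10, minus strand, 84661331 to 84662852, 1 exon), and its 755 nt 3′UTR (84661331 to 84662085) holds no AUUUA. Of its 4 crosslinked nucleotides, in capitals, 3 were A directly before a run of U and 1 was a U inside that run.
Ier2, only cluster, chr8:84661437-84661466, minus strand: caggaaagaAAAuuuuuuuuUuaccagcgu

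Ier3 was the member with by far the most cDNAs. Its 3′UTR held 6 TTP cDNAs and 0 TTP-AA cDNAs without LPS, 87 TTP and 159 TTP-AA cDNAs at 1 h, and 6 TTP and 0 TTP-AA cDNAs at 4 h. The TTP lists therefore held Ier3 at every time, whereas the TTP-AA lists held it at 1 h alone. At 1 h Ier3 ranked 11 of 1306 genes by 3′UTR cDNAs in the TTP list and 57 of 4510 in the TTP-AA list. The 87 TTP cDNAs lay on 39 nucleotides, of which 20 had a single cDNA, and the 159 TTP-AA cDNAs lay on 61 nucleotides, of which 26 had a single cDNA. Per 100 nt of 3′UTR these were 14.2 and 25.9 cDNAs.

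Ier5 had an intermediate number of cDNAs. Its 3′UTR held 5 TTP and 9 TTP-AA cDNAs without LPS, 0 TTP and 53 TTP-AA cDNAs at 1 h, and none of either at 4 h. Ier5 was thus listed for both proteins before LPS, and after 1 h it was listed for the mutant and not for the wild-type protein. It ranked 306 of 4510 genes in the TTP-AA list of 1 h, with 2.47 cDNAs per 100 nt of 3′UTR. Ier2 was listed in the TTP-AA list of 1 h alone, with 4 cDNAs on 4 nucleotides, at rank 2993 of 4510 genes and 0.53 cDNAs per 100 nt.

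**Figure D1:**
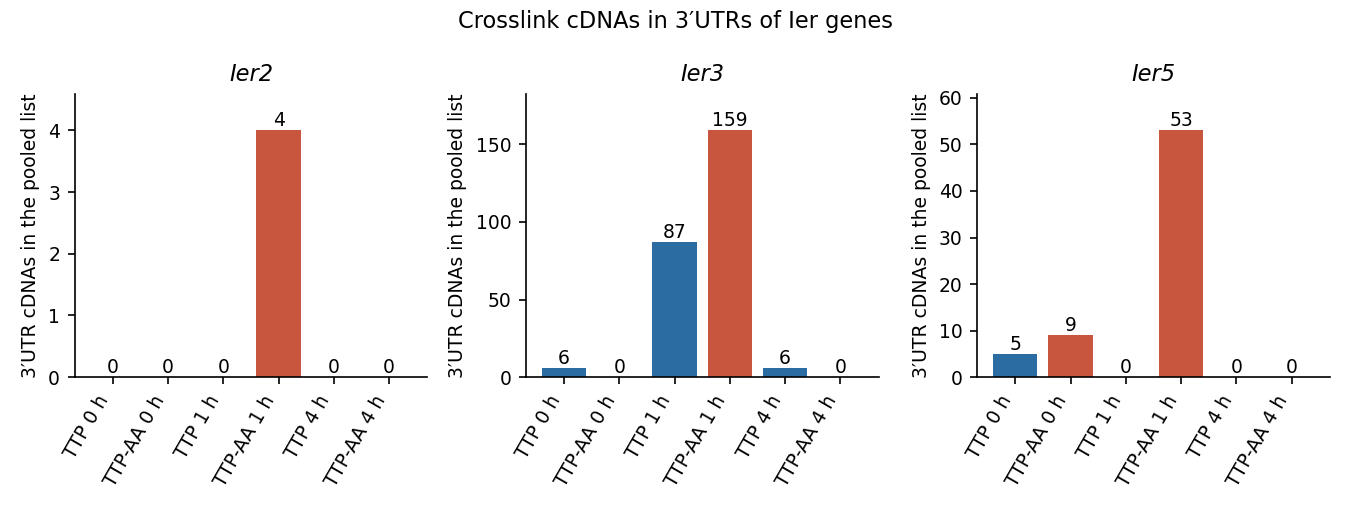
3′UTR cDNAs (y axis, count in the pooled list, from 0, scaled separately in each panel) of Ier2, Ier3 and Ier5 in the 6 lists (x axis), with TTP in blue and TTP-AA in red. Each bar is 1 pooled list and has no error bar. Ier3 stands at 87 and 159 at 1 h, Ier5 at 0 and 53, and Ier2 at 0 and 4.

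All cDNAs of the 3 genes lay in 3′UTRs, except for a small cluster in the 5′UTR of Ier3. No list held a cDNA in a coding sequence or in the Ier3 intron, on the antisense strand of the genes, or within 1000 nt downstream of them. For Ier3 in the TTP-AA list of 1 h, 159 of 167 cDNAs (95.2%, Wilson 95% interval 90.8 to 97.6) were in the 3′UTR. The other 8 cDNAs lay on 7 nucleotides immediately before the start codon, in capitals here with the start codon as the last 3 letters.
Ier3, end of the 5′UTR, chr17:35821692-35821721, plus strand: cuacacucucugcacaacgUcUAAAUUaug
In the same list 196 genes had 5′UTR cDNAs, 1198 in all, and 38 of them had at least 8, Ier3 included. The TTP list of 1 h held 0 cDNAs in the Ier3 5′UTR and 1043 in those of 191 other genes.

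The comparison of TTP-AA with TTP at 1 h addresses how the loss of the MK2 serines relates to the RNAs that the protein contacts after LPS. Ier3 took 91.0 of every 10000 TTP cDNAs in 3′UTRs (exact 95% interval 73.0 to 112) and 17.0 of every 10000 TTP-AA cDNAs (14.5 to 19.9). Its share of 3′UTR cDNAs was lower in the TTP-AA list (odds ratio 0.19, two-sided Fisher exact test over 2102 genes, Benjamini-Hochberg adjusted p = 1.25e-26), a direction that turned when all cDNAs of a list were the denominator (8.76 per 10000 for TTP and 9.12 for TTP-AA, adjusted p = 0.808). Of all genes tested 6.23% were called, 4.28% with a lower and 1.95% with a higher share in TTP-AA.

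The counts themselves went the other way. Ier3 cDNAs were 1.83 times as many for TTP-AA as for TTP (exact 95% interval 1.40 to 2.40), and 2.44 times as many (1.86 to 3.20) per pooled library. Over all 3′UTR cDNAs the corresponding ratios were 9.78 and 13.0. Of the 2102 genes tested, 51 had a count ratio under that of Ier3. Thus Ier3 had more cDNAs for the mutant, by a factor well below that of 3′UTRs as a whole.

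**Figure D2:**
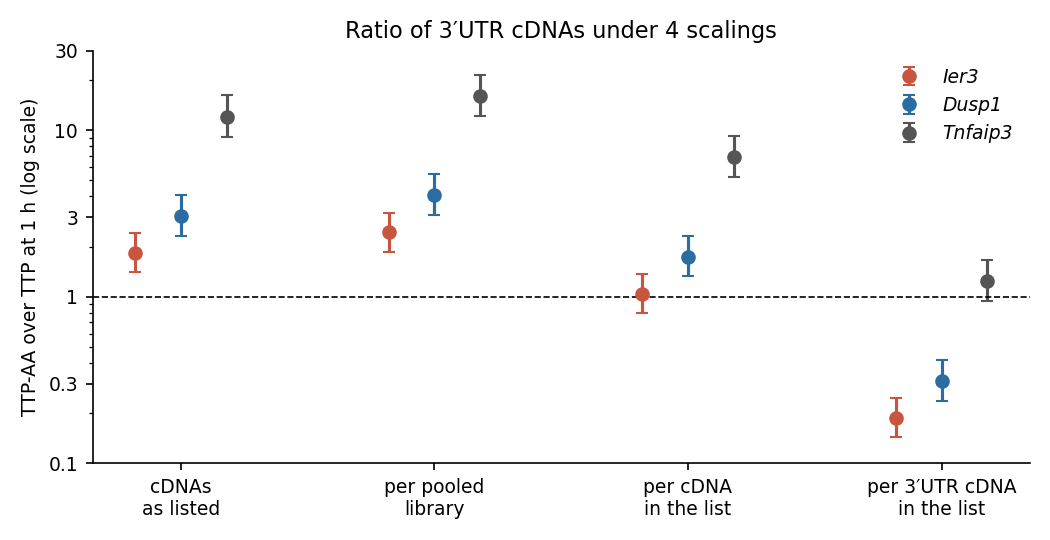
Ratio of TTP-AA to TTP 3′UTR cDNAs at 1 h (y axis, log scale) for Ier3, Dusp1 and Tnfaip3 under 4 scalings (x axis). Points are ratios, bars are exact 95% intervals that cover counting error only, and the dashed line marks equality. Ier3 goes from 2.44 per pooled library through 1.04 per cDNA in the list to 0.19 per 3′UTR cDNA, and lies below the other genes under each scaling.

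Ier5 took 5.67 of every 10000 TTP-AA cDNAs in 3′UTRs (exact 95% interval 4.25 to 7.41) and was listed at 0 in the TTP list, where the limit for a count of 0 was 3.14 per 10000. The exact 95% lower limit of the TTP-AA to TTP ratio was 13.9 for the counts and 1.42 for the shares. After adjustment over all genes the share did not pass the test (Fisher exact test, p = 0.0142, adjusted p = 0.124). It passed the Fisher exact test when all sense cDNAs in exons were counted (adjusted p = 0.0386, where 251 of 2245 genes were called). It also passed with all cDNAs of a list as denominator (3.04 per 10000 for TTP-AA, Fisher exact test, adjusted p = 8.00e-10). There 1792 of 2102 genes were called, 1783 of them higher for TTP-AA, so this call does not set Ier5 apart. Zero TTP cDNAs were common: 1166 of the 2102 genes tested had none, and so did 63 of the 319 genes with at least as many TTP-AA cDNAs as Ier5. Ier2, with 4 cDNAs, was under the minimum of 10 cDNAs for a test.

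**Figure D3:**
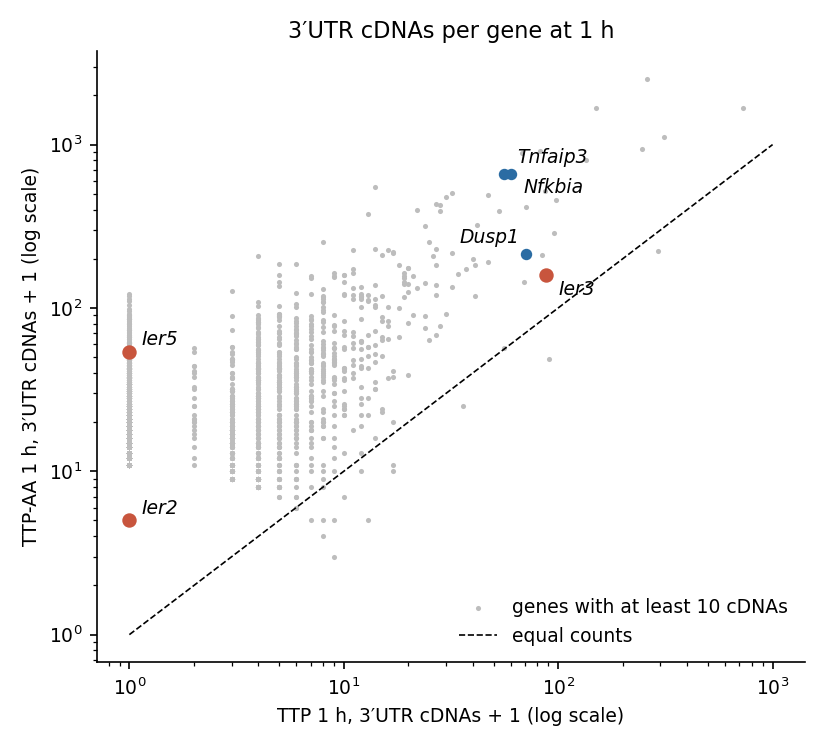
3′UTR cDNAs per gene at 1 h in the TTP list (x axis) and in the TTP-AA list (y axis), both as count plus 1 on log scales. Grey points are the 2102 genes with at least 10 cDNAs over both lists, red points the 3 Ier genes and blue points Dusp1, Tnfaip3 and Nfkbia; the dashed line marks equal counts. Ier3 (87 and 159) lies close to that line, Ier5 (0 and 53) on the left edge, and Ier2 (0 and 4) below the tested range.

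The 3 genes were also compared with each other within the 1 h lists, which needs no scaling. The TTP-AA list supplied 159 of 246 Ier3 cDNAs over both lists (64.6%, Wilson 95% interval 58.5 to 70.3) and 53 of 53 Ier5 cDNAs (100%, 93.2 to 100). This difference of 35.4 percentage points between Ier3 and Ier5 passed the test (Fisher exact test, adjusted p = 5.73e-09 over 3 pairs). Over all 3′UTRs the TTP-AA list held 93510 cDNAs and the TTP list 9558. Of 2102 genes tested, 51 had a count ratio under that of Ier3, so a gap from Ier3 is not particular to Ier5. The 0 TTP cDNAs of Ier5 also leave out any sites lost to the authors' threshold. Ier2, with 4 of 4 cDNAs from the TTP-AA list (interval 51.0 to 100), did not differ detectably by the exact test from Ier3 (adjusted p = 0.452) or from Ier5 (adjusted p = 1) at this depth.

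Before LPS, Ier5 took 11.4 of every 10000 3′UTR cDNAs for TTP (exact 95% interval 3.72 to 26.7) and 15.0 for TTP-AA (6.85 to 28.4), and the difference did not pass the test (Fisher exact test, odds ratio 1.31, adjusted p = 0.873, where 28.2% of 262 genes were called). Ier3, with 6 TTP cDNAs (13.7 per 10000, 5.04 to 29.9) and 0 TTP-AA cDNAs (limit 4.99 per 10000), had too few for a test. At 4 h Ier3 again had 6 TTP cDNAs (66.2 per 10000, 24.3 to 144) and 0 TTP-AA cDNAs, and the limit of 30 per 10000 was high because the list held only 1000 3′UTR cDNAs. None of the 3 genes reached the minimum at 4 h, where 68% of 25 genes were called.

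Between time points, the share of Ier3 in the lists rose for both proteins from unstimulated cells to 1 h. This rise cannot be told apart from a rise in Ier3 mRNA, which the lists do not measure. For TTP its share went from 13.7 to 91.0 per 10000 3′UTR cDNAs (odds ratio 6.68, Fisher exact test, adjusted p = 2.18e-07, where 23.8% of 277 genes rose and 47.3% were called). For TTP-AA it went from 0 to 17.0 per 10000, with an exact 95% lower limit of 2.74 for the ratio of shares (Fisher exact test, adjusted p = 0.00173, where 3.03% of 2081 genes rose and 13.6% were called), a call lost when each site was counted once (adjusted p = 0.179). The rise did not differ detectably between the proteins (exact conditional test of protein by time, adjusted p = 1, where 1.95% of 2209 genes were called).

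Ier5 did not pass the test over the same interval. Its TTP-AA share was 15.0 per 10000 without LPS and 5.67 at 1 h (odds ratio 0.38, Fisher exact test, adjusted p = 0.0759), with a difference of the opposite sign when all cDNAs were the denominator. Its TTP cDNAs were 5 without LPS and 0 at 1 h, under the minimum for a test. The TTP lists held 4369 3′UTR cDNAs without LPS and 9558 at 1 h, and 33587 and 99263 cDNAs in all regions. How often other genes went from so few cDNAs to 0 was not tested. Protein by time gave an adjusted p of 0.901 for Ier5 by the exact conditional test. With all cDNAs as the denominator the same test gave 0.0213, where 250 of 2209 genes were called. The 2 lists of 1 h carry a mark in their headers, for how regions were treated in the search for sites, that the other 4 lack. Time and this setting therefore cannot be told apart, for Ier3 as for Ier5.

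From 1 h to 4 h no member was called. The share of Ier3 in the TTP list was 91.0 per 10000 at 1 h and 66.2 at 4 h (odds ratio 0.73, Fisher exact test, adjusted p = 0.682, where 20% of 170 genes were called), and its count was 87 and 6. In the TTP-AA list Ier3 went from 159 cDNAs to 0 and Ier5 from 53 to 0 (Fisher exact test, both adjusted p = 1, where 3.09% of 2009 genes were called). With all cDNAs of a list as denominator, Ier3 was called lower at 4 h for TTP (Fisher exact test, adjusted p = 5.25e-04, where 51 of 170 genes were called). It was also called lower for TTP-AA (Fisher exact test, adjusted p = 5.08e-06, where 277 of 2009 genes were called). With each site counted once the TTP difference turned its sign without passing (Fisher exact test, adjusted p = 0.397). Protein by time against 4 h gave an adjusted p of 1 for Ier3 and for Ier5, where 0.189% of 2116 genes were called.

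The Ier3 cDNAs clustered on AUUUA. Within 20 nt of a whole AUUUA lay 86 of 87 TTP cDNAs at 1 h (98.9%, Wilson 95% interval 93.8 to 99.8) and 154 of 159 TTP-AA cDNAs (96.9%, 92.9 to 98.6), whereas 21.0% of the positions of this 3′UTR are that near to one. The proteins differed by 2.00 percentage points, which did not pass the test (Fisher exact test, p = 0.428). Shares this high left the test little room to show a difference. The test and the intervals treat neighbouring cDNAs as independent, which they are not. In the whole lists, 43.4% of TTP and 40.7% of TTP-AA 3′UTR cDNAs at 1 h lay within 20 nt of AUUUA, as did 6.53% of all 3′UTR positions. All 6 TTP cDNAs without LPS and all 6 at 4 h lay that near too.

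The position within the cluster was finer than that window. The median distance from an Ier3 cDNA to the nearest AUUUA was 1 nt for TTP and 3 nt for TTP-AA at 1 h, and 41.4% and 32.1% of cDNAs lay inside the motif. Numbered from the stop codon, the motifs start at 183, 191, 233, 288 and 298 nt. Of the 87 TTP cDNAs, 18 were nearest to the first motif, 26 to the second, 43 to the third and 0 to the last ones. Of the 159 TTP-AA cDNAs, 29, 44 and 76 were nearest to these 3 motifs, 10 to the fourth and 0 to the fifth. The first 3 motifs therefore carried nearly all cDNAs of both proteins, in similar proportions.

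**Figure D4:**
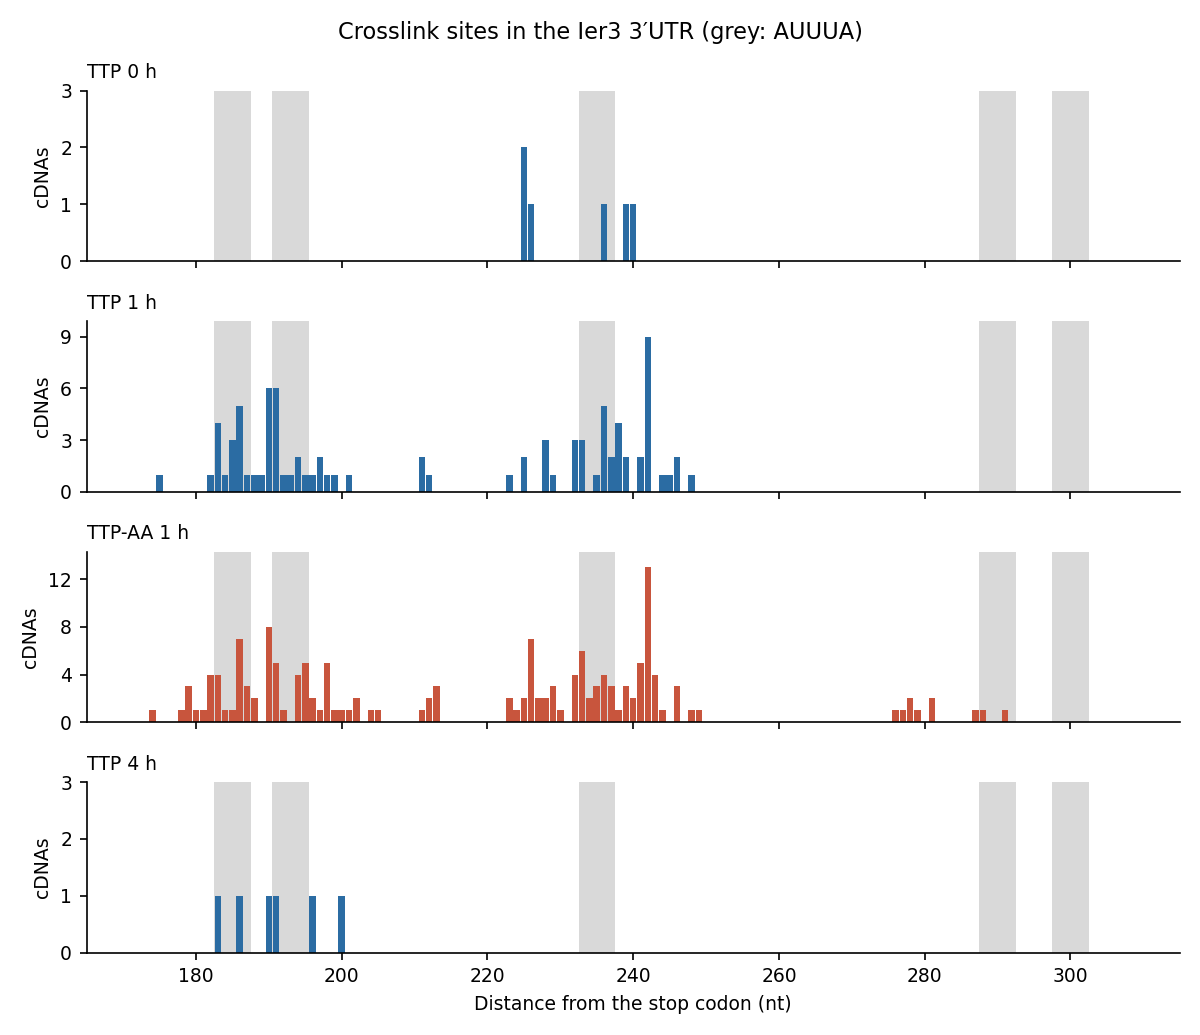
cDNAs per nucleotide (y axis, count, scaled separately in each panel) against distance from the stop codon (x axis, nt) in the Ier3 3′UTR for the 4 lists that hold Ier3, with TTP in blue, TTP-AA in red and the 5 AUUUA motifs in grey. Both proteins peak over the first 3 motifs at 1 h, the 6 unstimulated TTP cDNAs lie at the third motif, and the 6 TTP cDNAs of 4 h lie at the first and second.

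Most Ier3 nucleotides listed for TTP at 1 h were also listed for TTP-AA. Sites ran from 175 to 248 nt after the stop codon for TTP and from 174 to 291 nt for TTP-AA. Of 39 TTP sites, 35 (89.7%) were also TTP-AA sites, and of 61 TTP-AA sites the same 35 (57.4%) were TTP sites. Most nucleotides between 175 and 248 nt were TTP-AA sites, so much of this sharing follows from their density. Within 15 nt the shares were 39 of 39 TTP sites and 53 of 61 TTP-AA sites (86.9%). Every position in the TTP range lay within 15 nt of a TTP-AA site, so the first of these shares could not be lower. The nucleotide with most cDNAs was position 35822552 in both lists, just 3′ of the third AUUUA, with 9 TTP and 13 TTP-AA cDNAs. Over the 118 nt that span the sites, the counts per nucleotide had a Pearson r of 0.76 and a Spearman rho of 0.64, a description only, since neighbouring nucleotides are not independent.

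The small TTP lists of Ier3 sampled separate parts of that stretch. The 5 sites without LPS ran from 225 to 240 nt, and the 6 sites at 4 h from 183 to 200 nt, with 0 sites of either within 15 nt of the other. All 5 and all 6 were also TTP-AA sites at 1 h, and 3 of 5 and 5 of 6 were TTP sites at 1 h. With 6 cDNAs each, the share nearest to the third motif was 100% (Wilson 95% interval 61.0 to 100) without LPS and 0% (0 to 39.0) at 4 h. These intervals treat neighbouring cDNAs as independent, which they are not, so they do not establish a shift between the time points. How often the sites of other genes lie apart in these lists was not tested.

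Ier5 gave a different picture, with no cDNA near AUUUA. Of 53 TTP-AA cDNAs at 1 h, 0 lay within 20 nt of AUUUA (Wilson 95% interval 0 to 6.76%), and the nearest lay 695 nt from one. Only 3.45% of the positions of this 3′UTR are that near to one, so few cDNAs would lie there in any case. The interval treats neighbouring cDNAs as independent, which they are not. Of all TTP-AA 3′UTR cDNAs at 1 h, 40.7% lay within 20 nt of AUUUA, so lying away from it is not particular to Ier5. Nor did any lie within 20 nt of UGUGU, which occurs 6 times in this 3′UTR and in 72.4% of all 3′UTRs. The cDNAs fell into 3 clusters, of 8 cDNAs at 554 to 558 nt after the stop codon, 3 at 832 to 838 nt and 42 at 882 to 946 nt. No nucleotide had more than 4 cDNAs, and 28 of 38 sites had a single one, so the main cluster was spread over a U-rich stretch and had no single peak.

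**Figure D5:**
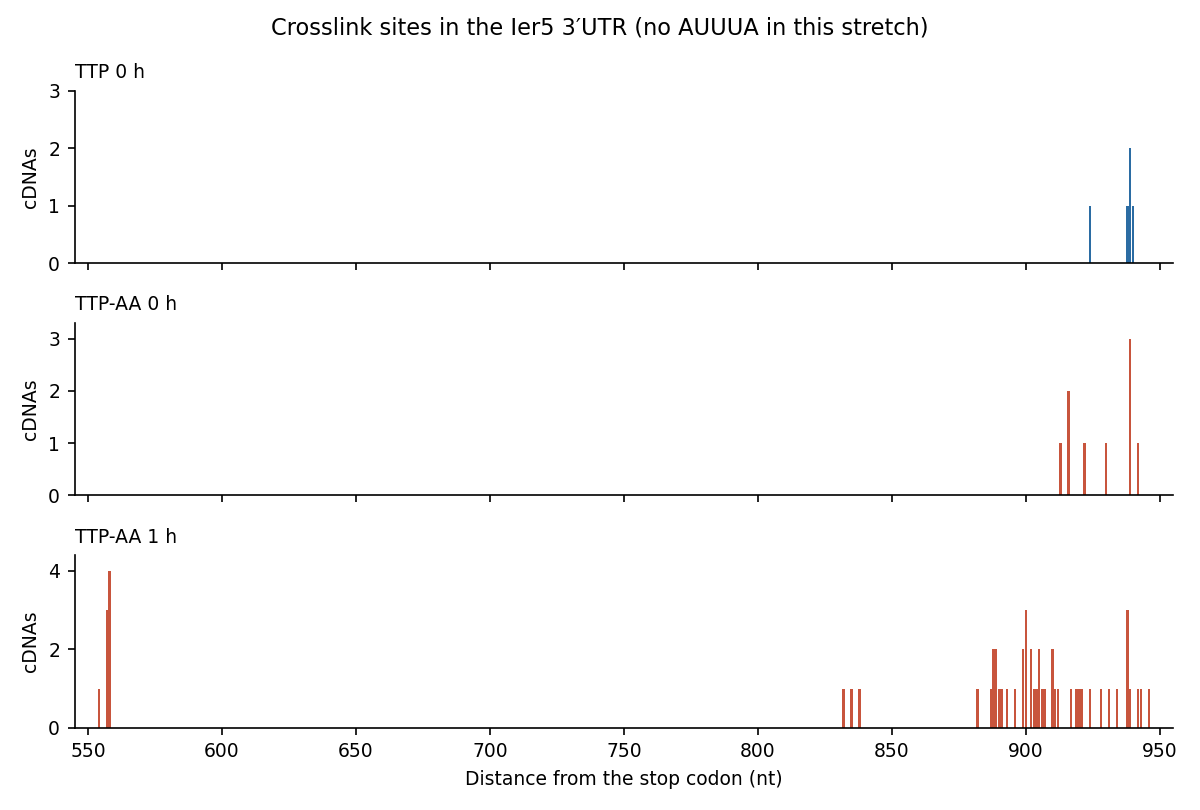
cDNAs per nucleotide (y axis, count, scaled separately in each panel) against distance from the stop codon (x axis, nt) in the Ier5 3′UTR for the 3 lists that hold Ier5, with TTP in blue and TTP-AA in red. The sites without LPS, 913 to 942 nt after the stop codon, lie within the main cluster of TTP-AA at 1 h (882 to 946 nt).

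The unstimulated Ier5 sites lay at the 3′ end of this main cluster. The TTP sites ran from 924 to 940 nt and the TTP-AA sites from 913 to 942 nt. The nucleotide with most cDNAs, position 155097565, was the same for both, with 2 TTP and 3 TTP-AA cDNAs. All 4 TTP and all 6 TTP-AA sites were within 15 nt of a site of the other protein, and 3 of the 4 TTP sites were TTP-AA sites at 1 h. The stretch without LPS printed above held 5 TTP and 6 TTP-AA cDNAs, and 11 TTP-AA cDNAs at 1 h.

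What the crosslinks of Ier3 and Ier5 had in common was U. The crosslinked base was U for 57.5% of Ier3 TTP cDNAs (Wilson 95% interval 47.0 to 67.3), for 53.5% of Ier3 TTP-AA cDNAs (45.7 to 61.0) and for 62.3% of Ier5 TTP-AA cDNAs (48.8 to 74.1) at 1 h, where the 3′UTRs are 27.2% and 28.7% U. Of the 41 nt around each Ier5 cDNA, A and U made up 67.2% on average, against 56.7% of the 3′UTR, and for Ier3 they made up 68.6% (TTP) and 67.6% (TTP-AA), against 50.7%. UV light links uridine more readily than other bases whatever the protein, and the part of this in the shares was not tested. Of the 4 Ier2 cDNAs, 3 were on A and 1 on U. The 41 nt around them were also richer in A and U, at 64.0% on average against 41.5% of that 3′UTR. The shares of bases over all 3′UTR cDNAs of the lists were not computed, so none of this is shown to be particular to these genes. The intervals of the base shares treat neighbouring cDNAs as independent, which they are not.

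Set against other immediate early and feedback genes, Ier3 had the most TTP cDNAs at 1 h. Of a list of 40 such genes, 32 had a 3′UTR cDNA at 1 h and 27 reached the minimum for a test. All 27 had more cDNAs for TTP-AA than for TTP, as did 99.2% of all 2102 genes tested. By their share among 3′UTR cDNAs, 3 of the 27 were called higher for TTP-AA and 3 lower, against 1.95% and 4.28% of all genes tested. Of the 27 genes, 9 had 0 TTP cDNAs, as did 55.5% of all genes tested. The median log2 ratio of counts was 3.87 over the 27 genes and 4.52 over all 2102 genes tested. Nfkbia, which encodes the NF-κB inhibitor IκBα, had 59 TTP and 662 TTP-AA cDNAs (adjusted p = 0.662 by the Fisher exact test). Tnfaip3, which encodes the ubiquitin-editing NF-κB inhibitor A20, had 55 and 664 cDNAs (adjusted p = 0.445, same exact test).

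Nfkbiz, which encodes the nuclear protein IκBζ, had 12 and 375 cDNAs, a higher share in TTP-AA (Fisher exact test, adjusted p = 1.60e-04). Dusp1, which encodes a phosphatase of MAP kinases, had 70 and 214 cDNAs, a lower share in TTP-AA (adjusted p = 4.29e-12) with a count ratio of 3.06 (exact 95% interval 2.32 to 4.06). Ier3 thus had more TTP cDNAs and fewer TTP-AA cDNAs than each of Nfkbia, Tnfaip3 and Dusp1. Of the genes that share the symbol stem, Ier5l was listed at 0 for both proteins at 1 h, and Ier3ip1, a gene for a protein that interacts with IER3, had 0 TTP and 6 TTP-AA cDNAs.

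The genes most like each member over the 6 lists were found by the Euclidean distance between log2 shares of 3′UTR cDNAs, among 2219 genes with at least 10 cDNAs. Nearest to Ier5 was Sema4d at a distance of 0.0272, with 5 TTP and 9 TTP-AA cDNAs without LPS, 0 and 52 at 1 h and none at 4 h, counts almost identical to those of Ier5. Parvb (0.317) and Pcdhgc4 (0.586) followed, the latter tied with other genes of its cluster that share a 3′UTR. Ier3 had no close neighbour, and the nearest were Atp6ap1 (3.05), Macf1 (3.13) and Jun (3.33), which had 12, 20 and 9 TTP cDNAs at 1 h. For Ier2, Napa, Atp6v0d1 and Ube2z stood at 1.22, tied with others among 76 genes that had 10 TTP-AA cDNAs at 1 h and none elsewhere. Ier2 had 4 cDNAs, under the minimum of 10 for this comparison, so its nearest genes were bound to lie at that minimum.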

How the data were processed

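The samples were iCLIP libraries, and the deposited values are a score per crosslink site (its count of unique cDNAs, negative on the minus strand). The authors split reads by barcode, collapsed PCR duplicates by the random bases, mapped to mm10 (Ensembl 75) with Bowtie (GRCm38 in the submitters' processing notes), took the nucleotide before the read, summed the libraries and kept sites under a false-discovery rate of 0.05 in iCount (100 permutations, 15 nt). The few random bases limit the cDNAs that can be told apart at 1 nucleotide, so intervals cover counting error only.

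Sites were assigned here with Python 3.11.15 (scipy 1.17.1, numpy 2.4.6, matplotlib 3.10.9 and pandas 2.3.3) to regions of GENCODE M21 in the order 3′UTR, coding sequence, 5′UTR, non-coding exon and intron. A site counted for every gene that overlaps it in that region. M21 is later than the authors' annotation, so counts may differ from theirs. Each gene with at least 10 3′UTR cDNAs over the lists compared was tested against all other 3′UTR cDNAs by the two-sided Fisher exact test, or for protein by time by the exact conditional test under the noncentral hypergeometric distribution. Benjamini-Hochberg adjustment ran over all genes tested, with a threshold of 0.05. Pseudocounts were 0.5, and the limit for a count of 0 was 3. Alternatives counted each site once, changed the denominator, the site minimum, the region order or the motif window, or left out each gene's top site. Tests were checked on simulated counts drawn without variation between libraries and without a site threshold, so the check covers neither. The total of cDNAs per list was between 19167 and 174397.

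The genes and lists were chosen with earlier results of these data known. Named genes were the 3 members, Ier5l, Ier3ip1, Dusp1, Tnfaip3, the 3 genes with most 3′UTR cDNAs at 1 h among the 40 other early genes, and the 3 genes nearest to each member. Motifs were searched on the transcribed strand. Sequences came from the GENCODE M21 transcripts.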

Additional observations from a re-analysis of the deposited data

How the results depend on the processing

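No paired analysis was possible because each list is a sum over libraries, and for the same reason no replicate could be left out. Of 142 alternatives, 104 left the direction and call or the value as reported. Some of these could hardly do otherwise. Region order cannot matter for members with a single annotated transcript, and members under the test minimum had no call to change. With all cDNAs of a list as denominator, the calls numbered 1792 of 2102 genes tested (TTP-AA versus TTP, 1 h), 503 of 2081 (TTP-AA, 1 h versus 0 h) and 277 of 2009 (TTP-AA, 4 h versus 1 h). For protein by time they numbered 250 of 2209 against 0 h and 15 of 2116 against 4 h. The differences per 10000 were then 0.35 for Ier3 and 3.04 for Ier5 (TTP-AA minus TTP, 1 h), 0.28 for Ier5 (TTP-AA, 1 h minus 0 h), and for Ier3, 4 h minus 1 h, -6.70 (TTP, adjusted p = 5.25e-04, Fisher exact test) and -9.12 (TTP-AA, adjusted p = 5.08e-06), and the protein by time log2 value of Ier5 was 5.10. The denominator, which takes in the non-3′UTR cDNAs, makes the change by construction.

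With each site counted once, calls numbered 31 of 212 genes tested (0 h), 7 of 15 (4 h), 67 of 224 (TTP, 1 h versus 0 h) and 20 of 2043 (protein by time, 0 h). Ier3 stood at 9.97 per 10000 (TTP-AA, 1 h versus 0 h, no longer called), at 54.2 (TTP, 4 h minus 1 h, reversed, adjusted p = 0.397, Fisher exact test) and at 89.7% of sites in the 3′UTR (TTP-AA, 1 h). With at least 2 cDNAs per site, fewer genes were tested and calls numbered 62 of 817 (1 h), 31 of 72 (0 h) and 10 of 12 (4 h). Between 1 h and 0 h they numbered 47 of 78 (TTP) and 90 of 829 (TTP-AA). Between 4 h and 1 h they numbered 14 of 61 (TTP) and 19 of 801 (TTP-AA), and for protein by time (0 h) 19 of 865. Ier3 then fell in TTP from 1 h to 4 h, a difference of -167 per 10000 (Fisher exact test, adjusted p = 0.0061), its protein by time value against 4 h was -2.66, and 94.3% of its TTP-AA sites had a TTP site. All exonic cDNAs gave 251 of 2245 (1 h) and 26 of 40 (4 h) genes called and Ier5 at 5.40 per 10000. Without each gene's top site 86 of 1798 genes were called at 1 h. Shared nucleotides were 89.7% and 57.4% of Ier3 sites. Scalings of the Ier3 count ratio, chosen after seeing the data, gave 2.44, 1.04 and 0.19. For changes in member values other than by denominator, the cause was not tested.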
